A study of Homo sapiens with 2 samples.

Results

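The genes described here encode the subunits of the 2 mTOR kinase complexes and of the switch that turns the first of them on. They were chosen by name: MTOR, RPTOR, RICTOR, MLST8, MAPKAP1, DEPTOR, AKT1S1, TSC1, TSC2 and RHEB, which are 10 of the 38637 genes in the table. All 10 were listed, and 9 passed the filter of a mean of 1 CPM or more (CPM are counts scaled to a library of 1000000), DEPTOR being the exception. Transcript levels came from 2 poly(A)-selected RNA-seq libraries of the established H1299 cell line, which comes from a non-small cell lung cancer. The control library is labelled as wild type with no treatment, and its title ends in nc. The other library is also labelled wild type and carries the treatment PHF12 KD, with si-phf12 in its title. PHF12 encodes a PHD finger protein of a Sin3 and histone deacetylase corepressor complex, and the study asked how its loss bears on signalling. An oligonucleotide given to the control cells is not named in the sources used here. With 1 library per group there is no replicate, so no p-value was made. Each difference below describes these 2 libraries, and its 95% interval covers counting error only.

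mTOR is a serine/threonine kinase that couples growth to nutrients and growth factors. With raptor (RPTOR) it forms mTORC1, which raises protein and lipid synthesis at the lysosome and blocks autophagy, and with rictor (RICTOR) and SIN1 (MAPKAP1) it forms mTORC2, which phosphorylates AKT. The GTPase RHEB activates mTORC1, and the TSC1-TSC2 complex, which AKT inhibits, switches RHEB off. These proteins are controlled mainly by phosphorylation, binding and location, which transcript counts do not measure.

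Depth was similar, with 24740581 control and 26084594 knockdown counts in all. PHF12 had 947 control and 756 knockdown counts, a fold of 0.753 (95% interval 0.683 to 0.829). Its transcript was thus reduced only in part. The log2 ratio, −0.41, was close to −0.39, the 5th percentile of log2 fold changes over all genes measured. The markers of a carcinoma line fixed for this work, KRT8, KRT18, VIM, CD44 and EGFR, were all detected, and the 12 markers of other cell types summed to 6.0 CPM (control) and 6.65 CPM (knockdown), with PTPRC, CD3E, HBB, SCGB1A1 and SFTPC, 5 of the 12, at 0 in both. KRT8 and KRT18 were lower in the knockdown library, at log2 ratios of −0.40 and −0.33.

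Of the 9 measured members, MLST8 was the farthest from level. It was lower in the knockdown library, at 0.705 of the control level, while the kinase MTOR, the defining subunits RPTOR and RICTOR, both TSC genes and RHEB lay between 0.964 and 1.14 times. A gene was called higher or lower where log2(CPM + 0.5) differed by at least 0.32 in size. By this rule 0 of the 9 measured members were higher, where 6.99% of the 14559 genes measured were, and 1 was lower, where 8.02% were. A count of 1 in 9 is near that background. In bulk RNA, fewer cells that express a gene and less of its RNA per cell cannot be told apart. The members' median log2 fold change was 0.02, against −0.01 over all genes measured, and 6 of the 9 were within 0.1. At 1.5-fold and at 2-fold 0 members were called, where 1.33% and 0.117% of the genes measured were higher and 1.41% and 0.117% lower. Without the expression filter 0 of the 10 members were higher, where 7.68% of 24142 genes were, and 2 were lower, MLST8 and DEPTOR, where 7.96% were.

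Short sequence words were looked for in the members' transcripts. An earlier analysis of these same libraries found the words ACATCGA and CATCGAA more often than expected in 3′ UTRs of genes lower in the knockdown library, and TCGGAGA and ATCGGAG in those of higher genes. The words of each pair share 6 letters. They were searched here in the sense strand of GENCODE release 29 protein-coding transcripts, and because they were found in these data their match is no separate evidence. No member held any of the 4 words in a 3′ UTR, where a word of the first pair occurred in 3.14% of 12326 measured genes and one of the second pair in 3.68%. In coding sequence, 3 members held a word of the first pair, as did 12.9% of 12366 measured genes. A word of the second pair was held by 1 member and by 11.6% of those genes. These shares were not matched for the length of the coding sequence, and a longer sequence has more room for a word. The sites are shown because they let the members that hold the same letters be compared. Capitals mark the word, coordinates are those of hg38, and the RPTOR site runs across an exon junction.
MLST8 (chr16:2207291-2207320, plus strand): cacgtccgcccACATCGAtcccgacgccag
MTOR (chr1:11121986-11122015, minus strand): gatccttctcaACATCGAgcatcgcatcat
TSC2 (chr16:2060775-2060804, plus strand): ctgctgaacatCATCGAAcggctccttcag
RPTOR (chr17:80893851-80908825, plus strand, spliced): tcaactccctcATCGGAGtttcctttaaca

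MLST8 and MTOR held the same word in coding sequence and differed in fold, MLST8 at 0.705 and MTOR at 1.03. TSC2, with the other word of that pair, stood at 1.01, and RPTOR, with a word of the second pair, at 1.14. Over all measured genes, the median log2 fold change was −0.08 for those with a word of the first pair in coding sequence and 0.00 for those without. Whether the words play a part in the MLST8 value was not tested.

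The levels of the members, as TPM deposited by the authors, spanned a 244-fold range in the control library. TPM divides each count by the listed gene length, so it allows genes to be compared. MAPKAP1, which encodes the mTORC2 subunit SIN1, was the highest of the 10, at 289 TPM (control) and 329 TPM (knockdown). In the control library 4.12% of the protein-coding genes measured were higher than MAPKAP1, and the median of those genes was 20.6 TPM. RHEB, the GTPase, followed at 160 and 157 TPM, and AKT1S1, which encodes the mTORC1 inhibitor PRAS40, at 80.5 and 81.9.

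MTOR had rank 4 in both libraries, at 67.9 and 71.3 TPM. MLST8 had rank 5 at 40.2 TPM in the control, and rank 7 at 28.9 TPM with the knockdown. RPTOR moved the other way, from rank 7 at 31.5 TPM to rank 5 at 36.5. TSC2 had rank 6 in both libraries, at 34.5 and 35.6 TPM, TSC1 rank 8, at 25.0 and 26.3, and RICTOR rank 9, at 18.7 and 19.0. DEPTOR was the lowest, at 1.18 and 0.798 TPM.

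In the control library the 95% Poisson intervals of neighbours in this order did not overlap. In the knockdown library those of RPTOR and TSC2 overlapped, as did those of MLST8 and TSC1. The order of MLST8 rests on its listed length of 4001 bases, while its longest protein-coding transcript in GENCODE release 29 has 1870. Counted per length of that longest transcript, MLST8 had rank 3 of the 10 in the control and rank 5 with the knockdown.

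**Figure D1:**
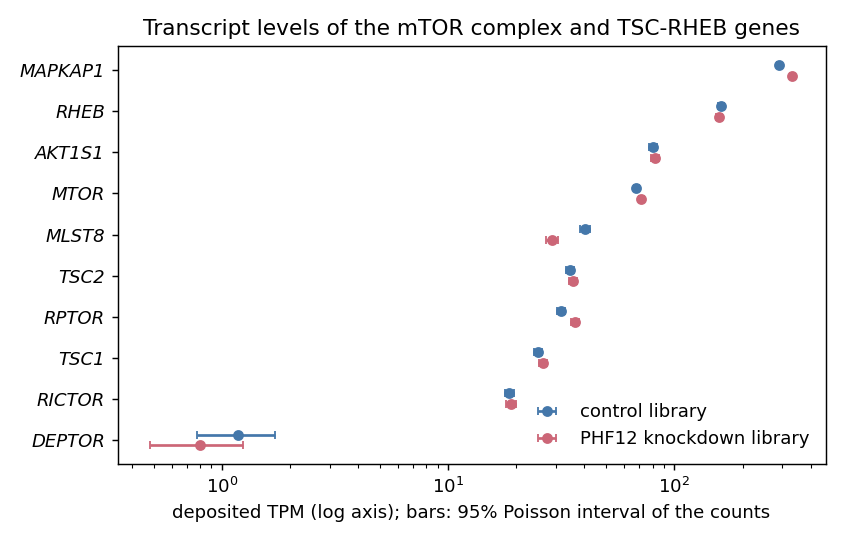
Deposited TPM of the 10 genes (log axis) in the control library (blue) and the PHF12 knockdown library (red), with 95% Poisson intervals of the counts as bars. MLST8 stands at 40.2 and 28.9 TPM, and RICTOR at 18.7 and 19.0.

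The kinase and the subunits that both complexes share came first. MTOR, on the minus strand of chromosome 1 from 11106535 to 11273497, had 5785 control and 6329 knockdown counts. Its log2 ratio was 0.04 (−0.01 to 0.10), and the interval included 0. MLST8, a WD-repeat protein that binds the kinase domain of mTOR in both complexes, lies on the plus strand of chromosome 16 from 2204628 to 2209453. It had 1431 control and 1070 knockdown counts, which correspond to 58.0 and 40.9 CPM. The log2 ratio was −0.50 (−0.62 to −0.39), and 2.53% of all genes measured had a log2 fold change as low or lower. DEPTOR, an inhibitor that binds mTOR in both complexes, is encoded on chromosome 8 from 119873722 to 120050918. It had only 27 and 19 counts, and its log2 ratio of −0.59 had an interval from −1.52 to 0.31, so no difference was detectable at this depth.

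The genes specific to mTORC1 are RPTOR and AKT1S1, and both were well covered. RPTOR, the scaffold that recruits substrates, lies on the plus strand of chromosome 17 from 80544838 to 80966368. It had 1918 and 2311 counts, and its log2 ratio was 0.18 (0.10 to 0.27), the highest of the members. Of all genes measured, 36.5% had a larger absolute log2 fold change. AKT1S1, on the minus strand of chromosome 19 from 49869033 to 49878356, had 2155 and 2284 counts, or 87.4 and 87.3 CPM. Its log2 ratio of 0.00 had an interval from −0.09 to 0.08.

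Of the mTORC2 genes, RICTOR was level and MAPKAP1 somewhat higher. RICTOR, on the minus strand of chromosome 5 from 38937920 to 39074421, had 1615 and 1713 counts, which are 65.5 CPM in both libraries. Its log2 ratio was 0.00 (−0.10 to 0.10). MAPKAP1, on the minus strand of chromosome 9 from 125437394 to 125707208, had 9420 and 11182 counts, with a log2 ratio of 0.16 (0.12 to 0.20). With the deepest counts of the members, MAPKAP1 had the narrowest interval, and 41.7% of all genes measured had a larger absolute log2 fold change.

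The switch genes were close to level. TSC1, the hamartin gene on the minus strand of chromosome 9 from 132891349 to 132945269, had 2033 and 2229 counts, with a log2 ratio of 0.05 (−0.04 to 0.14). TSC2, which encodes tuberin, the GTPase-activating subunit, lies on the plus strand of chromosome 16 from 2047804 to 2089491. It had 2116 and 2276 counts, with a log2 ratio of 0.02 (−0.07 to 0.11). RHEB, on the minus strand of chromosome 7 from 151466012 to 151519895, had 3829 and 3915 counts, with a log2 ratio of −0.05 (−0.12 to 0.01). RHEB has processed pseudogenes, so part of its reads may be placed elsewhere.

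The counting intervals of 3 of the 9 measured members excluded a fold of 1, RPTOR and MAPKAP1 above it and MLST8 below, where 41.1% of all genes measured did so in either direction. For scale, the reference gene ACTB had a log2 ratio of 0.22 (0.20 to 0.24), farther from 0 than RPTOR or MAPKAP1. GAPDH had one of −0.10 (−0.11 to −0.09). Of 10 reference genes, 0 were called higher and 1 lower, beside 6.99% and 8.02% of all genes measured. The lower one was HPRT1, with 1919 control and 1560 knockdown counts and a log2 ratio of −0.38 (−0.48 to −0.29).

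**Figure D2:**
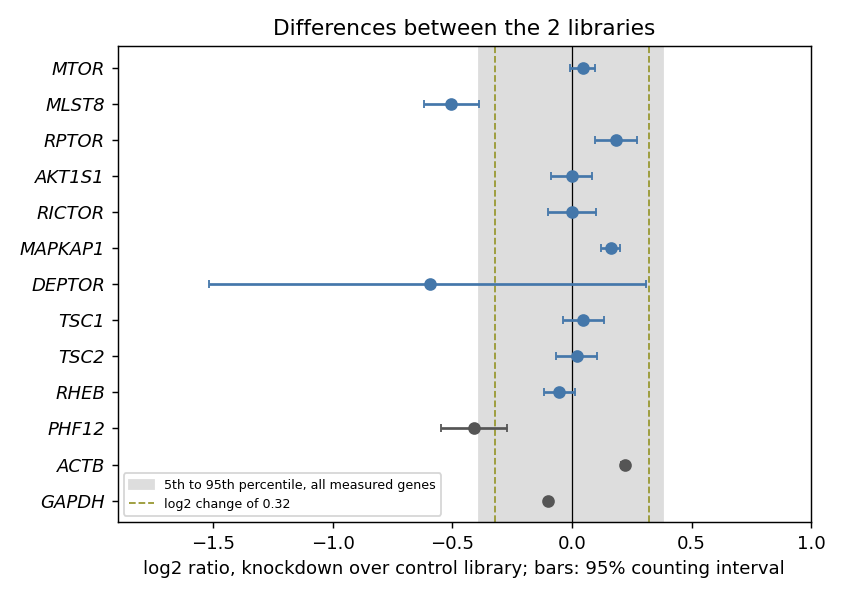
Log2 ratio of the knockdown over the control library for the 10 genes (blue) and for PHF12, ACTB and GAPDH (grey), with 95% counting intervals. The grey band spans the 5th to 95th percentile of all measured genes, −0.39 to 0.38, and the dashed lines mark a log2 change of 0.32. MLST8, DEPTOR and PHF12 lie left of the band, DEPTOR with an interval that reaches 0.31. The band was computed from log2(CPM + 0.5), while the points carry no pseudocount. On the scale of the band DEPTOR stands at −0.38, inside it.

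**Figure D3:**
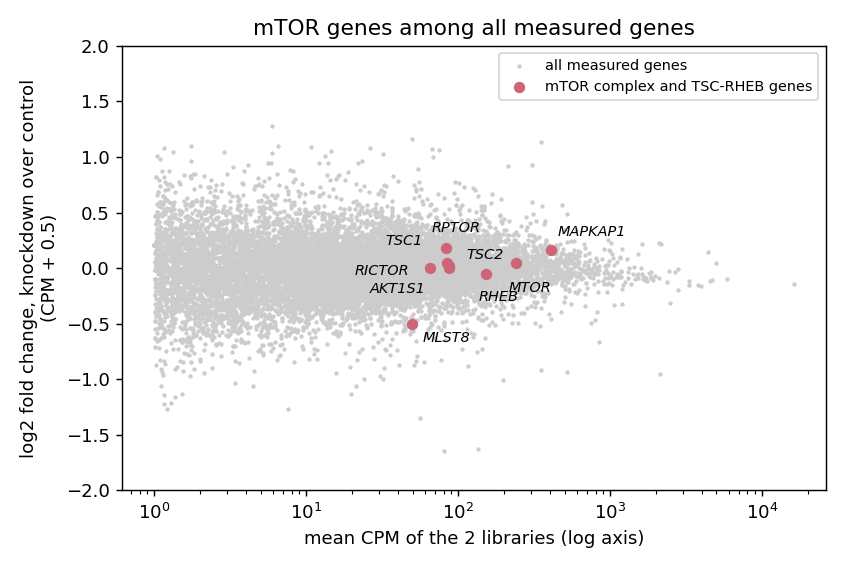
Log2 fold change (CPM + 0.5) against mean CPM (log axis) for the 14559 genes measured (grey) and the 9 measured members (red). MLST8, at −0.50, lies below the other 8, which stand between −0.05 and 0.18.

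Ratios between members within a library do not depend on how the libraries were scaled. The ratio of MLST8 to MTOR in TPM was 0.592 (control) and 0.405 (knockdown), a change of 0.683 (95% counting interval 0.627 to 0.745). MLST8 to RPTOR went from 1.28 to 0.791, so the order of these mTORC1 subunits reversed on the deposited TPM scale. Per length of the longest GENCODE transcript, the same ratio was 2.56 and 1.59, with no reversal.

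The subunits that tell the complexes apart shifted less. RPTOR to RICTOR was 1.69 (control) and 1.92 (knockdown), a change of 1.14 (1.04 to 1.24). RICTOR to MTOR was 0.275 and 0.266, a change of 0.970 (0.898 to 1.05). MAPKAP1 exceeded RICTOR 15.5 times (control) and 17.3 times (knockdown) in TPM.

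In the switch, TSC1 to TSC2 stood at 0.723 and 0.737, a change of 1.02 (0.937 to 1.11). RHEB exceeded TSC2 4.65 times (control) and 4.42 times (knockdown), a change of 0.951 (0.883 to 1.02). The intervals of both changes included 1.

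The submitters' notes give no strand setting, so reads where a member overlaps a gene on the other strand cannot be told apart. Of the 10 members, 5 overlap a gene on the other strand that has at least 100 counts over both libraries. RICTOR overlaps OSMR, a cytokine receptor gene with 2713 and 2751 counts, over 7660 bases. TSC2 overlaps PKD1 over 784 bases and NTHL1 over 31 bases, AKT1S1 overlaps TBC1D17 over 826, and MAPKAP1 overlaps LOC112268055 over 650. MLST8 overlaps only BRICD5, over 201 bases, and BRICD5 had 36 and 31 counts.

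TSC2 and MLST8 are neighbours on chromosome 16, with 115 kb between the end of one and the start of the other. Within 100 kb of MLST8, 12 other genes were measured, and their log2 fold changes ran from −0.30 for PKD1 to 0.39 for RNPS1, with a median of 0.01. MLST8 lay below all 12, as it did below most genes anywhere: 2.53% of all genes measured were as low or lower. PGP, a phosphatase gene near MLST8, had 1387 counts in each library, which after scaling is a log2 ratio of −0.08 (−0.19 to 0.02). Within 100 kb of TSC2, 16 other genes had a median of −0.10.

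NTHL1, a DNA glycosylase gene, starts head to head with TSC2. It had 393 control and 313 knockdown counts, a log2 ratio of −0.41 (−0.63 to −0.20), while TSC2 stood at 0.02 (−0.07 to 0.11). The region that holds both starts is shown because NTHL1 was lower in the knockdown library and TSC2, which shares it, was close to level. It is the RefSeq promoter window of TSC2 in GRCh38.p14, from 250 bases before to 50 after the start, on the plus strand at chr16:2047735-2048034. Capitals mark an E-box, CACGTG, the motif that MYC and TFEB family factors are known to bind.
TSC2 promoter: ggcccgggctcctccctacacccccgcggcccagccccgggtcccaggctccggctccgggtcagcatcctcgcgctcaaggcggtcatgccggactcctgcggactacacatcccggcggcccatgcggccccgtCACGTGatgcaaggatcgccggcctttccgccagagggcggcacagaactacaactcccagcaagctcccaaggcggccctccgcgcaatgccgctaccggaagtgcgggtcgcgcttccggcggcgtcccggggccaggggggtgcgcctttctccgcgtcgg

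RefSeq promoter windows were found for 7 of the 10 members, not for MLST8, DEPTOR or AKT1S1. The E-box, which reads the same on both strands, was found in the window of TSC2 and in none of MTOR, RPTOR, RICTOR, MAPKAP1, TSC1 and RHEB. Of all 35116 windows of 300 bases, 7.26% held it. A second RefSeq start of TSC2 has a window without it.

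**Figure D4:**
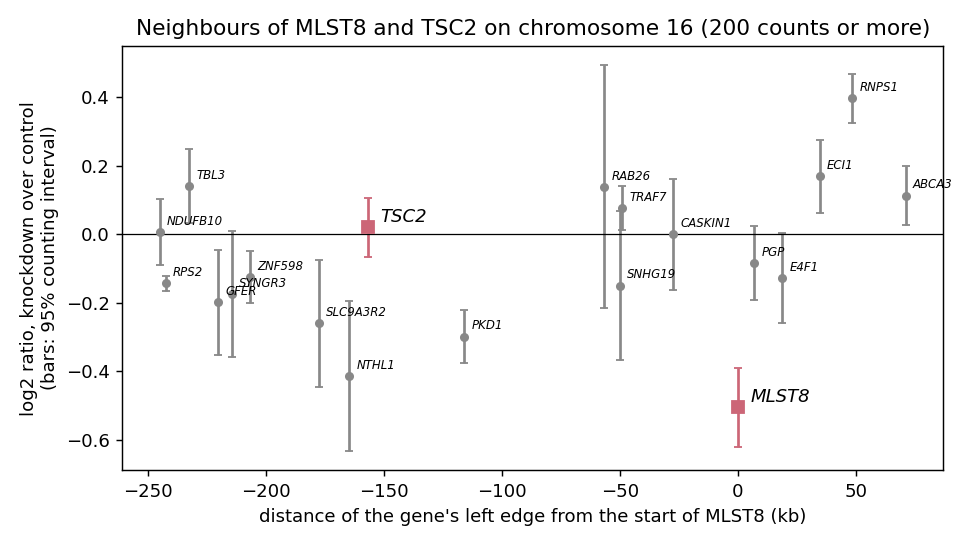
Log2 ratio of the knockdown over the control library against the distance of each gene's left edge from the start of MLST8 in kb, for MLST8 and TSC2 (red squares) and for other measured genes near them with at least 200 counts (grey), with 95% counting intervals. MLST8 lies at −0.50, and RNPS1 is the highest neighbour, at 0.40.

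The genes around the complexes were described by 9 lists, with 87 of 90 genes measured. By the same rule, 4 of the 87 were higher and 14 lower in the knockdown library, where 6.99% and 8.02% of all genes measured were. Their median log2 fold change was −0.07 against −0.01. The lists were chosen with earlier results of these data known, among them lower ATF4 targets, so these counts are not independent of those results. In GATOR1 and KICSTOR, which hold mTORC1 off when amino acids are scarce, 0 of 7 were higher and 1 lower, the GATOR1 subunit gene NPRL2 at a log2 ratio of −0.35 (−0.58 to −0.13). In GATOR2, which opposes GATOR1, 0 of 5 were higher and 1 lower. MIOS had 779 and 630 counts, with a log2 ratio of −0.39 (−0.54 to −0.24), while SEC13, which also serves in COPII vesicles, had 2132 and 2812 counts, with one of 0.31 (0.23 to 0.40), just short of the rule for a call.

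Among the 8 amino acid sensors, 2 were higher and 2 lower, beside 6.99% and 8.02% of all genes measured. The leucine sensor SESN2 had 2476 control and 1676 knockdown counts, a log2 ratio of −0.65 (−0.74 to −0.56), and its paralog SESN1 had 291 and 412 counts, a log2 ratio of 0.42 (0.20 to 0.64). The arginine sensor gene CASTOR1 and its paralog CASTOR2 differed in the same way. CASTOR1 had 115 and 72 counts, with a log2 ratio of −0.76 (−1.21 to −0.32), and CASTOR2 had 706 and 999 counts, with one of 0.42 (0.28 to 0.56). CASTOR2 has a near-identical pseudogene copy, so its reads are uncertain. CASTOR1, with a mean of 3.71 CPM, is below the level set for named genes and was named after its value was seen.

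The Rag GTPases, Ragulator and folliculin genes, which bring mTORC1 to the lysosome, had 1 of 12 higher and 0 lower. The shares over all genes measured were 6.99% and 8.02%. FNIP2, a folliculin partner, had 435 and 612 counts, with a log2 ratio of 0.41 (0.23 to 0.59). The GTPase gene RRAGD, with 2975 and 3771 counts, stood at 0.26 (0.19 to 0.33).

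Of 14 measured inputs to the switch, 1 was higher and 1 lower, beside 6.99% and 8.02% of all genes measured. DDIT4, whose product REDD1 acts through TSC2 to inhibit mTORC1, had 4096 and 2573 counts, with a log2 ratio of −0.75 (−0.83 to −0.68). PRKAA2, a catalytic subunit of the energy sensor AMPK, had 226 and 358 counts, with one of 0.58 (0.33 to 0.83), and the AMPK subunit gene PRKAB1 stood at −0.32 (−0.45 to −0.18). DDIT4 and SESN2 are both known targets of the stress factor ATF4.

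Of 14 measured mTORC1 substrates and their targets, 0 were higher and 1 lower, beside 6.99% and 8.02% of all genes measured. Their median was −0.01. EIF4EBP1, the translation repressor that mTORC1 inactivates, had 2255 and 1888 counts, with a log2 ratio of −0.34 (−0.43 to −0.25). The kinase gene RPS6KB1, with 1442 and 1372 counts, stood at −0.16 (−0.26 to −0.05), and the lipid phosphatase gene LPIN1 at −0.31 (−0.36 to −0.27).

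All 6 measured mTORC2 partners and substrates were below 0, as were 51.6% of all genes measured, and their median was −0.19. Of the 6, 2 were called lower, beside 8.02% of all genes. SGK1, a kinase that mTORC2 activates, had 1303 and 952 counts, with a log2 ratio of −0.54 (−0.66 to −0.42). NDRG1, the other, had only 39 and 26 counts and an interval from −1.44 to 0.08, which includes 0. The intervals of PRR5 (31 and 27 counts, −1.08 to 0.51), PRR5L (94 and 89 counts, −0.60 to 0.27) and SGK3 (−0.22 to 0.04) also included 0. That of PRKCA did not, with a log2 ratio of −0.19 (−0.30 to −0.08). The median and the shared sign thus rest in part on genes whose direction the counts do not settle.

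The chaperones that assemble mTOR had 0 of 5 higher and 1 lower, beside 6.99% and 8.02% of all genes measured. TELO2, a scaffold of the TTT complex that stabilises mTOR and related kinases, had 1211 and 1004 counts, with a log2 ratio of −0.36 (−0.48 to −0.23). Its partner gene TTI1 stood at −0.16 (−0.28 to −0.04).

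Transcripts that mTORC1 activity is known to raise had the lowest median of the 9 lists, −0.22, with 13 of 16 below 0, as were 51.6% of all genes measured. By the rule, 0 were higher, beside 6.99% of all genes, and 5 were lower, beside 8.02%: ASNS, PHGDH, PSAT1, MTHFD2 and VEGFA. ASNS, the asparagine synthetase gene, had 5034 and 3735 counts, with a log2 ratio of −0.52 (−0.58 to −0.45), and PHGDH, the first enzyme of serine synthesis, had 1912 and 1439 counts, with one of −0.49 (−0.59 to −0.39). The growth factor gene VEGFA had 1791 and 1451 counts, with one of −0.39 (−0.49 to −0.29). ASNS, PHGDH, PSAT1 and MTHFD2 are ATF4 targets, and lower ATF4 targets were already known in these libraries, so this count is not independent.

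**Figure D5:**
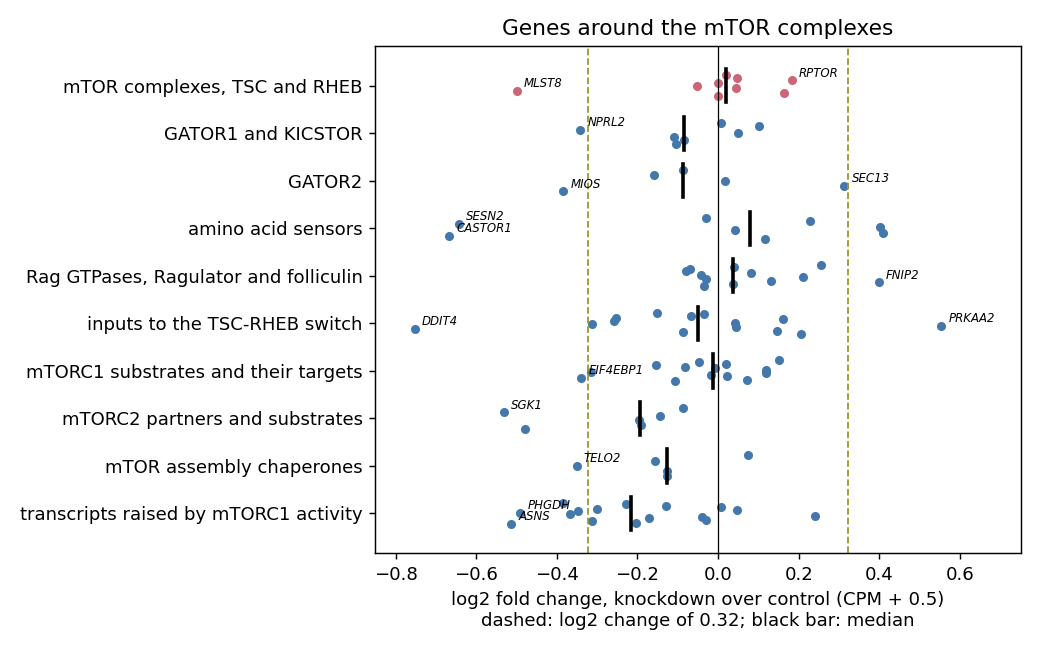
Log2 fold change (CPM + 0.5) of each measured gene, by list, with the members in red, other genes in blue, black bars for medians and dashed lines at a log2 change of 0.32. The members cluster around 0 apart from MLST8, and transcripts raised by mTORC1 activity have the lowest median, −0.22.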

How the data were processed

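Expression was measured by RNA-seq in 1 control and 1 PHF12 knockdown library of H1299 cells, grouped by their treatment labels. The submitters' processing notes name HISAT2, HTSeq and hg38, with no version or strand setting in the sources used here. The deposited table holds, per the file headers, raw counts and TPM for each gene, and TPM rebuilt from the counts and listed lengths matched them to within a relative difference of 2.28e-14. From the deposited counts, TMM factors were computed with edgeR 4.0.16 (0.997 and 1.00), and CPM on the scaled library sizes. Called genes differed by at least 0.32 on the scale of log2(CPM + 0.5). Log2 ratios and folds of single genes carry no pseudocount and have exact conditional Clopper-Pearson 95% intervals for 2 Poisson counts; intervals of changes in a ratio are normal approximations on the log scale. They cover counting error only, and PCR copies are not independent molecules. The fold rule and intervals were tried on simulated Poisson counts, the same model that the intervals assume. The simulation held no variation between replicate libraries, so it cannot show how the rule behaves under it. Genes named are the 10 members, PHF12, ACTB, GAPDH and up to 3 genes per list. The genes taken per list had the largest absolute log2 fold change, a mean of at least 5 CPM and an interval without 1. The cell type markers, HPRT1, MTHFD2, PSAT1, CASTOR1, NDRG1, PRR5, PRR5L, SGK3 and overlapping or neighbouring genes were named outside that rule. Some genes are not reported here. Members and lists were chosen with earlier results of these data known. Alternatives were scaling by totals or DESeq2 1.42.0 size factors, TPM, pseudocounts of 0.1 and 1, other filters, and folds of 1.5 and 2. Computation used R 4.3.3 and Python 3.11.15.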

Additional observations from a re-analysis of the deposited data

How the results depend on the processing

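No paired analysis was possible because each group has 1 library. MLST8 stayed the 1 lower member with total-count scaling, DESeq2 size factors, deposited TPM, pseudocounts of 0.1 and 1, a mean of at least 5 CPM and protein-coding genes only, at log2 fold changes from −0.50 to −0.47. Without the expression filter 2 members were lower, MLST8 and DEPTOR, where 7.96% of 24142 genes were. At 1.5-fold and at 2-fold 0 members were lower, as MLST8 is 0.705 of the control. All 72 member values under these settings stayed within their main counting interval. The filter settings cannot change a member's fold change, so only the scalings, TPM and pseudocounts could have moved these values. Without division by length, the control ratios were 0.247 for MLST8 to MTOR, 1.19 for RPTOR to RICTOR, 0.961 for TSC1 to TSC2 and 1.81 for RHEB to TSC2. With the longest GENCODE transcript as length, a setting chosen after seeing the data, MLST8 to MTOR was 1.15 and RHEB to TSC2 5.53. The depth allowed no statement on DEPTOR.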
